A study of Homo sapiens with 35 samples.

Results

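Neutrophil granules carry the proteases, antimicrobial proteins and oxidants that the cell releases onto microbes, and 10 genes for such proteins are described here across 13 groups of RNA-seq libraries. They are MPO, ELANE, PRTN3, CTSG, AZU1, BPI, CEACAM6, LTF, CAMP and LCN2. Each was taken as the row of its symbol in both deposited count tables, so that 10 of the 59428 gene rows are members. The rule uses symbols and no measured value, but the set was proposed with earlier results of these data known. The 35 libraries hold poly(A)-selected RNA of 4 human lines of acute myeloid leukaemia, namely MOLM-13, OCI-AML-3 and the monocytic lines THP-1 and U937. DKO libraries come from cells targeted at both SUV39H1 and SUV39H2, SKO libraries from cells targeted at SUV39H1 alone, and sgControl libraries from cells with a control guide. Both targets encode histone methyltransferases that place the heterochromatin mark H3K9me3, and the series title concerns their restraint of immune signalling that transposable elements start. THP-1 and U937 each had DKO, SKO and sgControl groups of 3 libraries, and U937 had the same 3 groups again under TPA, a phorbol ester that drives such cells toward macrophages, with no dose or time in the labels. MOLM-13 had 2 SKO and 2 sgControl libraries, and OCI-AML-3 had 2 DKO and 2 sgControl libraries. U937, THP-1 and MOLM-13 cells grew in RPMI-1640 medium, and OCI-AML-3 cells in MEM alpha with more serum.

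Granule proteins are made in a fixed order while a neutrophil precursor matures. Promyelocytes make the azurophil granule, filled with myeloperoxidase (MPO), with the serine proteases neutrophil elastase (ELANE), proteinase 3 (PRTN3) and cathepsin G (CTSG), with their inactive relative azurocidin (AZU1) and with the bactericidal protein BPI, and later stages make the specific granule, filled with lactoferrin (LTF), cathelicidin (CAMP) and lipocalin 2 (LCN2). The promyelocyte genes are turned on by transcription factors such as PU.1, C/EBP proteins, RUNX1 and MYB, and the specific granule genes depend on C/EBP epsilon. Monocyte precursors make the azurophil proteins too, at falling levels as they mature, and CEACAM6 is a cell surface adhesion protein of granulocytes and many epithelia that is also held in granules.

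Library totals ran from 31985767 to 61178704 counted reads. In the table of untreated U937 and THP-1 reads of a pair were counted singly, so that a fragment can add 2 counts, and the counting command of the other table is not given. Group names follow the labels. The SUV39H1 transcript was lower than in sgControl in OCI-AML-3 DKO (log2 fold change -3.35 ± 0.11, SE), MOLM-13 SKO (-1.90 ± 0.09) and U937 DKO TPA (-0.71 ± 0.06), but higher in U937 SKO (0.76 ± 0.05), U937 DKO (0.32 ± 0.05), THP-1 SKO (1.44 ± 0.05), THP-1 DKO (0.75 ± 0.05) and U937 SKO TPA (0.55 ± 0.06). The SUV39H2 transcript was lower than in sgControl in U937 DKO TPA (-1.01 ± 0.08), THP-1 DKO (-1.11 ± 0.07), U937 DKO (-0.39 ± 0.06) and OCI-AML-3 DKO (-0.33 ± 0.09), and also in MOLM-13 SKO (-1.15 ± 0.08), THP-1 SKO (-0.63 ± 0.07) and U937 SKO (-0.27 ± 0.06), where it was not targeted, while U937 SKO TPA was not called (0.05 ± 0.08). A count per gene does not show a small deletion or insertion, so these values do not test the knockouts. Whether replicates were cultured separately is not stated, and a p-value therefore reflects only how much these libraries vary, which may be technical. Column headers of the THP-1 SKO and sgControl libraries share a code of digits and the words clone 1, and those of U937 SKO and sgControl share another such code. THP-1 DKO headers carry a different code and U937 DKO headers the words clone 3, so for these DKO groups the header strings, whose meaning is not stated, and the label cannot be told apart. In THP-1 SKO and sgControl the words clone 1 follow different guide names, so sharing them does not show a shared clone. Clone and label may therefore be joined there too. Myeloid markers were present in all groups: each of 10 myeloid marker genes had reads in every group and their summed level was at least 575.9 CPM (read counts scaled for library size) in every library. In bulk RNA, fewer cells that use a gene and less RNA per cell cannot be told apart.

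Of the 10 genes, 3 lie side by side on chromosome 19 of hg38. AZU1 (chr19:825097-832018), PRTN3 (chr19:840999-848175) and ELANE (chr19:851014-856247) are all on the plus strand and span 31.15 kb together. CEACAM6 lies far off on the same chromosome (chr19:41750977-41772211, plus strand), CTSG on chromosome 14 (chr14:24573518-24576250, minus strand) and MPO on chromosome 17 (chr17:58269855-58280935, minus strand). BPI lies at chr20:38304150-38337505 on the plus strand, LTF at chr3:46435645-46485234 on the minus strand, CAMP at chr3:48223347-48225491 on the plus strand, 1.738 Mb from LTF, and LCN2 at chr9:128149071-128153453 on the plus strand. BPI shares exon bases with 2 other annotated genes, one of them antisense, and CEACAM6 with 1, and the recorded counting command does not use strand, so their levels can hold or lose reads of those genes.

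The promoters of PRTN3, CTSG, AZU1 and CEACAM6 are shown because these 4 genes were called higher in both knockouts under TPA, as described further on, while the untreated lines split them. RefSeq promoters (build GRCh38.p14, 250 bases before to 50 after the start site) were found for 7 of the 10 genes. Capitals mark matches, on either strand, to TTNNGNAA or TTGCNNAA (C/EBP), GAGGAA (PU.1), TGTGGT (RUNX) and TAACNG (MYB), and to AGATAA, read by GATA factors. The 4 windows are chr19:840749-841048 (plus strand) for PRTN3, chr14:24576201-24576500 (minus strand) for CTSG, chr19:827587-827886 (plus strand) for AZU1 and chr19:41755280-41755579 (plus strand) for CEACAM6.
PRTN3: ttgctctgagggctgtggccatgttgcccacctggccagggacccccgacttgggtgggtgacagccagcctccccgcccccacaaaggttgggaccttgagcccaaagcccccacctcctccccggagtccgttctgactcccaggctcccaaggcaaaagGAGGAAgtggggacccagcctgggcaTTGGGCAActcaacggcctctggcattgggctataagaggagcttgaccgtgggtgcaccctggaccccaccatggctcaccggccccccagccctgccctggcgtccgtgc
CTSG: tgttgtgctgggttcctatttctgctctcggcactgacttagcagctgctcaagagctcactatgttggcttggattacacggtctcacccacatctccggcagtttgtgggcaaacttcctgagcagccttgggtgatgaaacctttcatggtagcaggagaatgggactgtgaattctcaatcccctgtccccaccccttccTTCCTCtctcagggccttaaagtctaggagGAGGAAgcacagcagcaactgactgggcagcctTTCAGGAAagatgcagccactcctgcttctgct
AZU1: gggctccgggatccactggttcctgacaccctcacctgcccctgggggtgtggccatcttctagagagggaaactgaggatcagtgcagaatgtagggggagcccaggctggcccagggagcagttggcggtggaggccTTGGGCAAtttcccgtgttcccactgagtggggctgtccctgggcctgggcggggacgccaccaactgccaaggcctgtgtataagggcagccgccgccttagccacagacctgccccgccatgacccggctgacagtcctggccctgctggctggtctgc
CEACAM6: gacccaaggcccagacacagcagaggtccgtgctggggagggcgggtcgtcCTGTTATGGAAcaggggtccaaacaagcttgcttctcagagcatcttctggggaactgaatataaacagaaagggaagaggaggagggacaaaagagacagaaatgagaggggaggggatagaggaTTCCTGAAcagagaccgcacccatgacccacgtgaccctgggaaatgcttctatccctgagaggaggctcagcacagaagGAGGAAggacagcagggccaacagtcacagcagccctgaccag

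All 4 windows held a TTNNGNAA match, which 36.84% of 35116 RefSeq promoters held, and 3 of the 4 held GAGGAA, which 27.85% held. In PRTN3 and AZU1 the TTNNGNAA match was also a TTGCNNAA match on the other strand, as every TTGCNNAA match must be, and 10.46% of promoters held one. These stood at base -62 from the start site in PRTN3 and at base -111 in AZU1, and in both genes they read TTGGGCAA. GAGGAA stood at base -88 in PRTN3, at bases -46 and -16 in CTSG and at base 8 in CEACAM6, and was not found in the AZU1 window. The CEACAM6 window held 2 TTNNGNAA matches, at bases -196 and -73, the first overlapping a TAACNG match at base -199, a motif that 20.75% of promoters held. No TGTGGT or AGATAA stood in these 4 windows, and 13.07% and 10.33% of promoters held them. A match is a string of letters and not a shown binding site.

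The members reached very unequal levels. Per kb of exon, PRTN3 was the most abundant member in MOLM-13, with 14310 CPM per kb in SKO and 11760 in sgControl, and CTSG was the most abundant in untreated U937, with 947 CPM per kb in DKO, 1052 in SKO and 1877 in sgControl. MOLM-13 had the highest mean of 5 members, namely MPO, ELANE, PRTN3, AZU1 and BPI. BPI averaged 428 ± 3.17 CPM in MOLM-13 SKO and 230 ± 0.532 in MOLM-13 sgControl (SD, n = 2 each), and at most 2.60 ± 0.92 CPM in any other group, U937 DKO. The 10 genes together took 2.52 ± 0.0431% of counted reads in MOLM-13 SKO and 2.08 ± 0.0481% in MOLM-13 sgControl, but 0.0196 ± 0.00087% in U937 DKO TPA, 0.0247 ± 0.000322% in U937 SKO TPA and 0.00957 ± 0.000568% in U937 sgControl TPA. ELANE, PRTN3, CTSG, AZU1 and BPI had reads in all 35 libraries. LCN2 had 4 reads in all, 2 in 1 THP-1 sgControl and 2 in 1 U937 sgControl TPA library, where 3 reads in a library correspond to between 0.049 and 0.0938 CPM.

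Ordered by group mean, AZU1 separated best, since none of its 12 pairs of neighbouring groups overlapped. Its means ran from 5916 CPM in MOLM-13 SKO, 3653 in MOLM-13 sgControl and 2682 in THP-1 SKO, through 2275 in THP-1 sgControl, 1769 in THP-1 DKO, 1157 in OCI-AML-3 DKO, 581.7 in OCI-AML-3 sgControl, 293 in U937 DKO, 183 in U937 SKO and 159 in U937 sgControl, down to 60.3 in U937 SKO TPA, 49.3 in U937 DKO TPA and 27.0 in U937 sgControl TPA. PRTN3 and CTSG had 2 overlapping neighbour pairs of 12 each, ELANE 5, MPO 4, CEACAM6 5, BPI 8, LTF 8 and CAMP 11. For LCN2 all 12 pairs overlapped. CTSG ran in an order of its own, highest in THP-1 SKO with 2729 ± 93.1 CPM and U937 sgControl with 2568 ± 130 (SD, n = 3 each), whose libraries overlapped, and it was lower in MOLM-13 SKO with 142 ± 2.85 CPM and MOLM-13 sgControl with 400 ± 4.27 (SD, n = 2 each) than in every other group without TPA. CEACAM6 was highest in U937 DKO, then THP-1 DKO and THP-1 SKO, and had no reads in either OCI-AML-3 group.

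**Figure D1:**
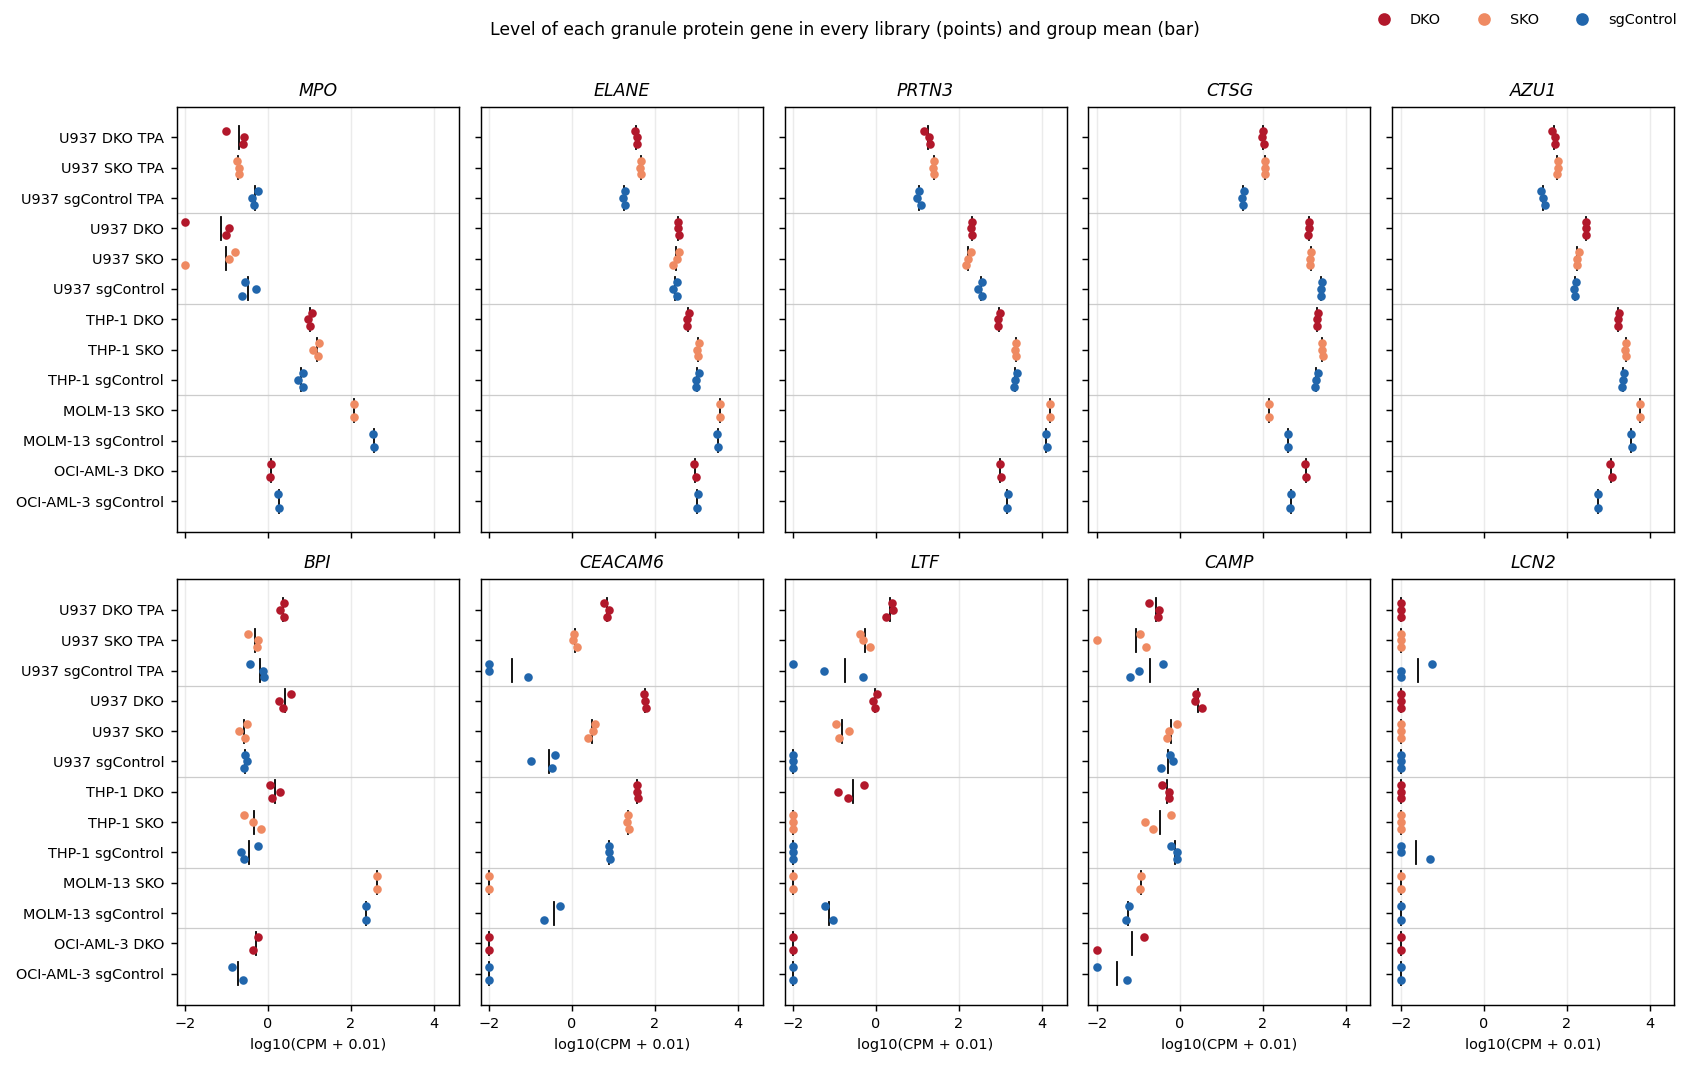
Level of each of the 10 genes in every library (points, log10 of CPM plus 0.01) and the group mean (bar), for the 13 groups from the top, with DKO in red, SKO in orange and sgControl in blue. PRTN3 reaches 15850 CPM in MOLM-13 SKO, the TPA-treated U937 groups lie lowest for the 4 protease family genes, and LCN2 shows reads in 2 libraries.

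Each knockout was set against sgControl of the same line and treatment, to ask how targeting of the methyltransferases goes with the granule genes. A gene was called higher or lower at an adjusted p under 0.05 by edgeR's quasi-likelihood test with Benjamini-Hochberg adjustment over all genes tested, and LCN2 never passed the filter on low counts. Each SE of a log2 fold change is its size divided by the square root of the test's F statistic. Such a value can understate the error where a change is large and reads are few. In U937 DKO, 5 of the 8 members tested were higher and 2 lower, where 33.2% and 34.5% of all genes tested were called that way and 67.8% in either, and in U937 SKO 3 of 8 were higher and 2 lower, where 30.6% and 31.1% were, or 61.8% in either direction. In THP-1 DKO, 4 of 8 were higher and 3 lower (32.0% and 33.6% of all genes, 65.5% in either direction), and in THP-1 SKO 4 were higher and 1 lower (20.7% and 22.9%, 43.5% in either). With so many genes called, these counts of members are read only beside those shares. The filter also tilts them, since a gene passes when enough libraries hold reads, whichever group they belong to. LTF, with 0 reads in U937 sgControl, could only be called higher in untreated U937. MPO, with 40 reads in U937 sgControl and 7 in DKO, was not tested there. The same filter applies to the other comparisons and lists given below.

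Under TPA, 7 of 9 members tested were higher in U937 DKO and 1 lower, against 34.1% and 36.5% of all genes (70.6% in either direction), and 5 of 9 were higher in U937 SKO and 1 lower, against 25.9% and 24.7% (50.6%). MOLM-13 SKO had 4 of 6 higher and 2 lower, against 31.7% and 32.2% (63.9%). OCI-AML-3 DKO had 3 of 6 higher and 3 lower, against 24.6% and 25.8% (50.5%). No member was called in 1 direction in all 8 comparisons. AZU1 came nearest, higher in 7 and lower in THP-1 DKO, while CEACAM6 was higher in all 6 in which it was tested and BPI in 5 of 8 with 3 not called.

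**Figure D2:**
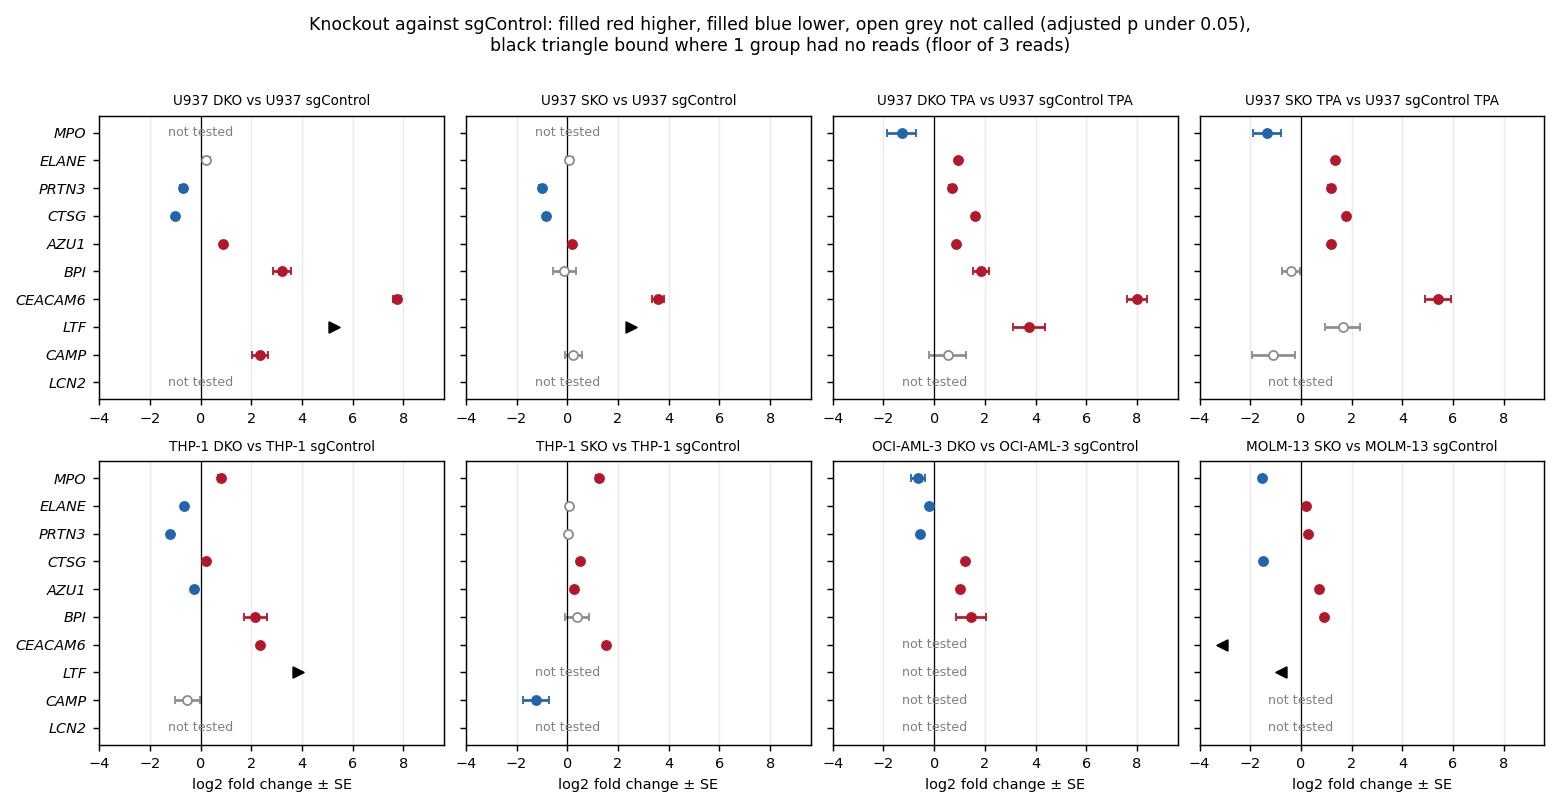
Log2 fold change ± SE of each member in the 8 knockout comparisons, with filled red for higher, filled blue for lower, open grey for not called and a black triangle for the bound where 1 group had no reads. CEACAM6 stands at 7.75 in DKO and 3.58 in SKO of untreated U937, where LTF has only a lower bound, while PRTN3 and CTSG lie left of 0 in both untreated U937 comparisons and right of 0 in both under TPA.

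The azurophil serine protease genes split in untreated U937. CTSG, which encodes a chymotrypsin-like granule protease, had 1296, 1317 and 1274 CPM in DKO and 1496, 1396 and 1423 CPM in SKO, against 2718, 2485 and 2502 CPM in sgControl. No groups overlapped, and the log2 fold changes were -0.99 ± 0.03 in DKO (adjusted p = 4.2e-24, edgeR) and -0.84 ± 0.03 in SKO (8.1e-22). PRTN3, an elastase-like protease and a main target of ANCA autoantibodies, had 214, 201 and 204 CPM in DKO and 195, 164 and 149 CPM in SKO, against 357, 297 and 354 CPM in sgControl. Both knockouts lay below sgControl without overlap, at -0.71 ± 0.11 in DKO (edgeR adjusted p = 0.0013) and -0.99 ± 0.12 in SKO (0.00026). AZU1, an antimicrobial protein without protease activity, had 293, 299 and 287 CPM in DKO and 195, 178 and 176 CPM in SKO, against 169, 151 and 156 CPM in sgControl. It rose in both, by 0.88 ± 0.04 in DKO (edgeR adjusted p = 3.8e-19) and 0.20 ± 0.04 in SKO (7.6e-05). ELANE, the elastase whose variants cause congenital neutropenia, was not called, at 0.23 ± 0.14 in DKO (edgeR adjusted p = 0.19), where its 369, 354 and 381 CPM lay above the 337, 272 and 333 CPM of sgControl, and at 0.08 ± 0.14 in SKO. AZU1, PRTN3 and ELANE are neighbours on chromosome 19, so the rise and the fall stood within the same 31.15 kb. Beside these changes, 10 mitochondrial and heat shock transcripts, a sign of RNA quality, summed to 38700 to 43040 CPM in DKO and 45350 to 47280 in SKO, against 46020 to 50010 CPM in sgControl. Of these 10, 9 were called lower in DKO, while 5 were lower and 2 higher in SKO, and their part in the result was not tested.

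In THP-1 the family moved otherwise. CTSG had 2106, 2097 and 2081 CPM in DKO and 2718, 2642 and 2828 CPM in SKO, against 2111, 1889 and 1806 CPM in sgControl. On the scale shared by all 35 libraries the DKO and sgControl ranges meet, whereas within the THP-1 fit they did not, and CTSG was higher in both, by 0.22 ± 0.04 in DKO (edgeR adjusted p = 2.5e-05) and 0.50 ± 0.04 in SKO (3.3e-12). PRTN3 had 966, 887 and 904 CPM in DKO, against 2508, 2251 and 2159 CPM in sgControl, a fall of -1.22 ± 0.05 (edgeR adjusted p = 9.8e-22). ELANE fell with it, to 674, 599 and 602 CPM in DKO, against 1169, 982 and 973 CPM in sgControl (-0.63 ± 0.06, edgeR adjusted p = 1.3e-08). The sum of the 10 mitochondrial and heat shock transcripts was 31170 to 31690 CPM in THP-1 DKO, against 45190 to 45980 CPM in sgControl, with 8 of 10 called lower and 1 higher, and its part in these falls was not tested. In THP-1 SKO neither was called, PRTN3 at 0.05 ± 0.04 and ELANE at 0.07 ± 0.06. Both became called there without sgControl replicate 1, PRTN3 at 0.10 (edgeR adjusted p = 0.029) and ELANE at 0.14 (0.0052). AZU1 went in opposite directions, -0.26 ± 0.04 in DKO (edgeR adjusted p = 2.3e-06) and 0.25 ± 0.04 in SKO (1.1e-05). DKO set against SKO gave 2 members higher and 5 lower of 8 in THP-1 (25.2% and 28.5% of all genes, 53.7% in either direction), with PRTN3 at -1.27 ± 0.05. In U937 the same contrast gave 5 higher and 1 lower of 8 (24.1% and 24.9%, 49.0% in either), with CTSG the lower one at -0.15 ± 0.03.

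Under TPA all 4 family genes were higher in both U937 knockouts. CTSG had 103, 95.5 and 111 CPM in DKO and 112, 115 and 116 CPM in SKO, against 34.8, 32.1 and 33.9 CPM in sgControl. That is a rise of 1.63 ± 0.05 in DKO (edgeR adjusted p = 6.6e-25) and 1.77 ± 0.05 in SKO (1.9e-25). ELANE had 32.6, 37.0 and 36.3 CPM in DKO and 47.0, 43.7 and 47.5 CPM in SKO, against 19.1, 17.03 and 18.8 CPM in sgControl, rising by 0.95 ± 0.07 in DKO (edgeR adjusted p = 1.3e-14) and 1.34 ± 0.07 in SKO (2.8e-18). PRTN3 rose by 0.70 ± 0.10 in DKO and 1.17 ± 0.10 in SKO, and AZU1 by 0.88 ± 0.07 and 1.17 ± 0.07, with no overlap of groups. All 4 were lower in DKO than in SKO, with log2 differences of -0.38 ± 0.06 for ELANE, -0.47 ± 0.10 for PRTN3, -0.29 ± 0.07 for AZU1 and -0.15 ± 0.05 for CTSG. The CTSG call of that contrast was lost without DKO replicate 2 (edgeR adjusted p = 0.077) and with DESeq2 (0.074). DKO against SKO under TPA had 3 members higher and 4 lower of 9 (31.4% and 32.5% of all genes, 63.9% in either direction). Along with these genes, the summed level of 15 monocyte and macrophage markers was 2181 to 2294 CPM in DKO TPA, 1297 to 1336 in SKO TPA and 981.1 to 992.3 in sgControl TPA, and that of the 10 mitochondrial and heat shock transcripts was 21970 to 22170, 37410 to 40460 and 41390 to 42720 CPM in that order of groups. Of 13 of the monocyte and macrophage markers tested, 8 were higher and 2 lower in DKO TPA (34.1% and 36.5% of all genes). In SKO TPA, 8 were higher and 5 lower (25.9% and 24.7%). The part of either list in the result was not tested.

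MOLM-13 SKO and OCI-AML-3 DKO moved CTSG in opposite directions. In MOLM-13, CTSG had 140 and 144 CPM in SKO, against 403 and 397 CPM in sgControl, a fall of -1.49 ± 0.03 (edgeR adjusted p = 3.0e-36). In OCI-AML-3 it had 1061 and 1117 CPM in DKO, against 478 and 465 CPM in sgControl, a rise of 1.22 ± 0.05 (edgeR adjusted p = 2.6e-70). The difference between these lines, whose knockouts also differ, was not tested. AZU1 was higher in both, by 0.71 ± 0.02 in MOLM-13 SKO (5964 and 5869 CPM, against 3619 and 3687 CPM in sgControl) and by 1.00 ± 0.05 in OCI-AML-3 DKO (1093 and 1221 CPM, against 586 and 577 CPM in sgControl). PRTN3 was higher by 0.30 ± 0.02 in MOLM-13 SKO (15910 and 15780 CPM, against 12700 and 13330 CPM) and lower, at -0.56 ± 0.05 in OCI-AML-3 DKO (964 and 1053 CPM, against 1548 and 1439 CPM). ELANE followed PRTN3 with smaller changes, 0.22 ± 0.03 in MOLM-13 SKO and -0.19 ± 0.05 in OCI-AML-3 DKO, and the second call was lost without sgControl replicate 1 (edgeR adjusted p = 0.069).

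The make-up of the family differed between the groups of each line. As a share of the summed CPM per kb of the 4 genes, CTSG took 57.2 ± 0.805% in U937 DKO, 64.6 ± 2.55% in SKO and 72.9 ± 1.61% in sgControl (SD, n = 3 each), with the libraries of the groups apart in that order. In THP-1 the order was the reverse, 38.7 ± 1.04% in DKO, 29.8 ± 0.718% in SKO and 24.45 ± 0.0887% in sgControl (n = 3 each). Under TPA, CTSG took 49.1 ± 3.21% in U937 DKO, 45.3 ± 0.915% in SKO and 36.4 ± 1.51% in sgControl (n = 3 each). It took 24.4 ± 0.634% in OCI-AML-3 DKO and 11.3 ± 0.185% in sgControl, but 0.484 ± 0.0132% in MOLM-13 SKO and 1.70 ± 0.0812% in sgControl (n = 2 each), where PRTN3 made up 67.0% and 68.1%. AZU1 took 9.93% in U937 DKO and 6.30% in SKO, against 3.46% in sgControl, and 19.9% in OCI-AML-3 DKO, against 10.7% in sgControl. These shares were not tested beyond the fits of the single genes.

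**Figure D3:**
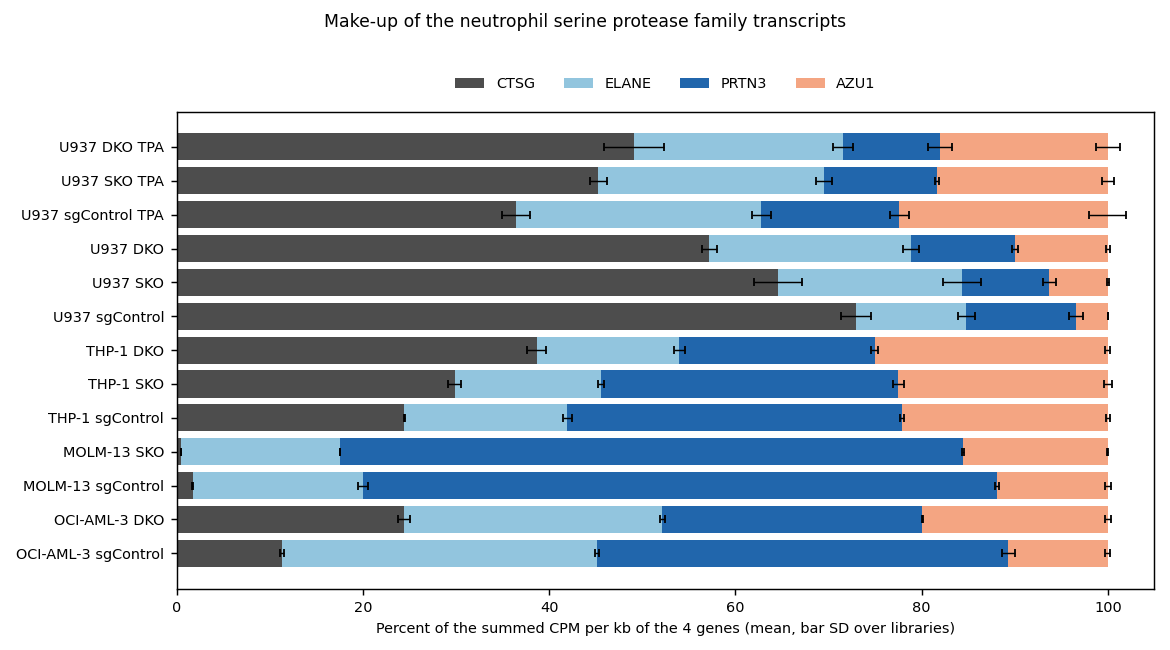
Share of CTSG, ELANE, PRTN3 and AZU1 in the summed CPM per kb of the 4 genes, as group means with SD bars over libraries (n = 3, or 2 in MOLM-13 and OCI-AML-3). CTSG shrinks to 57.2% in U937 DKO, against 72.9% in U937 sgControl, and grows to 38.7% in THP-1 DKO, against 24.45% in THP-1 sgControl, while PRTN3 fills 67.0% in MOLM-13 SKO.

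The genes around AZU1, PRTN3 and ELANE on chromosome 19 were shifted in the median in some comparisons. Relative to all genes, the median log2 fold change of 184 to 199 other expressed genes within 10 Mb of PRTN3 was 0.49 in U937 DKO, 0.37 in U937 SKO, 0.43 in U937 DKO TPA and 0.39 in U937 SKO TPA. It was -0.32 in THP-1 DKO, -0.04 in THP-1 SKO, 0.00 in OCI-AML-3 DKO and 0.04 in MOLM-13 SKO. The genes of these medians, and of the chromosome medians below, had a mean log2 CPM of at least 2. All genes tested include weaker ones, so level and place are not told apart in a single median. The median of all of chromosome 19 lay on the same side with smaller values, 0.25 in U937 DKO, 0.14 in U937 SKO, 0.28 in U937 DKO TPA, 0.20 in U937 SKO TPA and -0.12 in THP-1 DKO, and the difference between this end and the whole chromosome was not tested. The U937 SKO rise of AZU1 by 0.20 was smaller than the median there. The THP-1 DKO fall of AZU1 by -0.26 is not taken relative to all genes, whose median was 0.05, and was near the -0.32 of its neighbourhood. The falls of PRTN3 in U937 ran against the neighbourhood, and its fall in THP-1 DKO was larger than it. What moves these genes was not tested, and header code and clone word differ between some of these groups. Around CTSG on chromosome 14 the same median was 0.00 in U937 DKO, -0.02 in U937 SKO and 0.11 in U937 DKO TPA. In THP-1 DKO it was -0.22 around CTSG, and around BPI, CAMP, LCN2, LTF, CEACAM6 and MPO it ran from -0.24 to -0.07. The medians of all of chromosomes 14, 9, 3, 20 and 17 ran there from -0.23 to -0.17, below that of chromosome 19. A lower median in THP-1 DKO was thus not particular to chromosome 19.

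**Figure D4:**
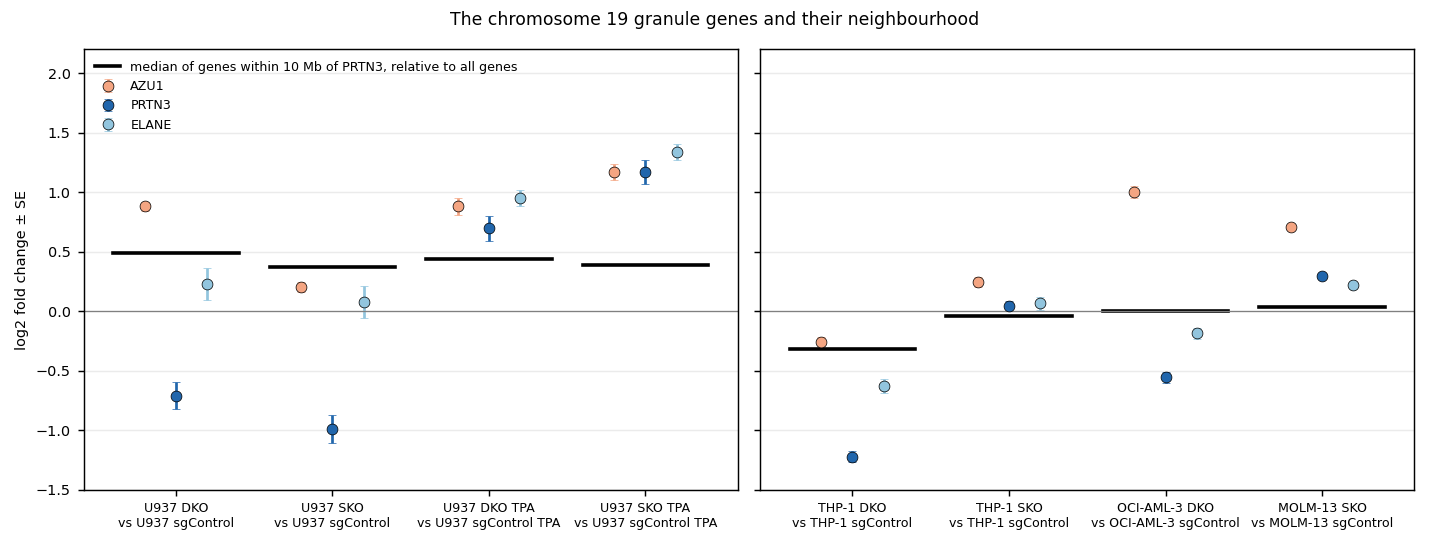
Log2 fold change ± SE of AZU1, PRTN3 and ELANE in the 8 knockout comparisons, with a black bar for the median of other genes within 10 Mb of PRTN3 relative to all genes. The values of the 3 genes are not taken relative to all genes. In untreated U937 the bar stands at 0.49 for DKO and 0.37 for SKO while PRTN3 stands at -0.71 and -0.99, and in THP-1 DKO all 3 genes and the bar lie below 0.

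MPO, the haem peroxidase that makes hypochlorous acid, fell in MOLM-13, where its level was highest, and rose in THP-1. In MOLM-13 it had 119 and 120 CPM in SKO, against 349 and 356 CPM in sgControl, a fall of -1.55 ± 0.03 (edgeR adjusted p = 1.8e-36). In THP-1 it had 11.5, 9.33 and 10.1 CPM in DKO and 16.5, 12.4 and 16.5 CPM in SKO, against 6.83, 5.19 and 7.12 CPM in sgControl. MPO rose there by 0.80 ± 0.13 in DKO (edgeR adjusted p = 1.4e-06) and 1.25 ± 0.12 in SKO (2.1e-10), with the 3 groups apart. OCI-AML-3 had 1.18 and 1.13 CPM in DKO, against 1.78 and 1.81 CPM in sgControl, or -0.62 ± 0.27 (edgeR adjusted p = 0.046). That call was lost when any 1 of the 4 libraries was left out (edgeR adjusted p = 0.088 to 0.14) and with DESeq2 (0.23). In U937 MPO was near the limit of detection, with 7 reads in all in DKO, 10 in SKO and 40 in sgControl, and was not tested. Under TPA it had 19 reads in DKO, 22 in SKO and 57 in sgControl, called lower at -1.28 ± 0.58 in DKO (edgeR adjusted p = 0.049) and -1.34 ± 0.57 in SKO (0.048). Both calls were lost when any 1 of the 9 libraries was left out, at adjusted p from 0.053 to 0.21. In MOLM-13, the fall of MPO and CTSG went with a fall of 10 eosinophil and basophil markers, summing to 285.6 to 289.6 CPM in SKO and 1133 to 1153 CPM in sgControl, where 7 of 9 tested fell. The sum of 10 myeloid markers was 8940 to 9051 CPM in SKO and 1262 to 1321 CPM in sgControl. Most of the SKO sum and of its rise was LYZ alone, whose levels are given further on, though all 9 tested were called higher (31.7% of all genes). The 10 mitochondrial and heat shock transcripts summed to 66420 to 66470 CPM in SKO and 47200 to 49230 CPM in sgControl, with 8 of 10 called higher and 2 lower. The part of any of these in the result was not tested. In OCI-AML-3 the transcripts of this last list summed to 46570 to 47550 CPM in DKO and 39400 to 41030 CPM in sgControl, with 6 of 10 called higher.

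BPI, which binds bacterial lipopolysaccharide, was higher in every DKO comparison. It had 3.64, 1.87 and 2.30 CPM in U937 DKO, against 0.262, 0.307 and 0.257 CPM in sgControl, a rise of 3.22 ± 0.36 (edgeR adjusted p = 4.9e-10). In THP-1 DKO it had 1.097, 1.96 and 1.23 CPM, against 0.563, 0.209 and 0.251 CPM in sgControl (2.15 ± 0.45, edgeR adjusted p = 8.5e-05). Under TPA it had 2.36, 1.97 and 2.42 CPM in U937 DKO, against 0.362, 0.750 and 0.770 CPM in sgControl (1.85 ± 0.33, edgeR adjusted p = 6.2e-06). In none of these 3 did the groups overlap. OCI-AML-3 DKO had 48 reads in all, against 17 in sgControl, or 1.45 ± 0.58 (edgeR adjusted p = 0.029), a call lost when any 1 library was left out (0.058 to 0.26) and with DESeq2 (0.2). SKO did not give a BPI call in U937 (-0.12 ± 0.46), THP-1 (0.38 ± 0.46) or U937 TPA (-0.40 ± 0.36), and DKO was higher than SKO in each, by 3.34 ± 0.37, 1.78 ± 0.43 and 2.25 ± 0.34. MOLM-13, the line that expressed BPI well, had 426 and 430 CPM in SKO, against 230 and 229 CPM in sgControl (0.91 ± 0.03, edgeR adjusted p = 7.2e-30).

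CEACAM6 was highest in DKO and intermediate in SKO in both U937 and THP-1. It had 53.5, 56.8 and 60.5 CPM in U937 DKO and 3.67, 3.26 and 2.43 CPM in SKO, against 0.380, 0.0944 and 0.314 CPM in sgControl. The 3 groups stood far apart, with log2 fold changes of 7.75 ± 0.16 in DKO (edgeR adjusted p = 6.9e-26) and 3.58 ± 0.25 in SKO (2.0e-13), on 349 reads in SKO and 31 in sgControl. THP-1 had 36.1, 37.5 and 38.4 CPM in DKO and 22, 21.3 and 24.1 CPM in SKO, against 7.92, 7.66 and 8.21 CPM in sgControl (2.34 ± 0.08 in DKO, edgeR adjusted p = 4.1e-23, and 1.51 ± 0.08 in SKO, 1.1e-17). DKO was higher than SKO by 4.17 ± 0.11 in U937 and 0.83 ± 0.07 in THP-1. Under TPA it had 708 reads in U937 DKO and 142 in SKO, against 3 in sgControl, all 3 in replicate 3. The ratio of summed levels was 285 in DKO (counting interval 97.3 to 1387) and 47.7 in SKO (15.99 to 234). MOLM-13 went the other way, with 0 reads in SKO and 20 and 10 reads in the sgControl libraries, so that SKO was at least 8.68-fold lower against a floor of 3 reads over the group, and this was not tested. OCI-AML-3 had no CEACAM6 reads in either group.

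Other genes of the CEACAM family rose with it in U937. Of 9 family genes other than CEACAM6, all 7 tested were higher in U937 DKO and 6 of 7 in U937 SKO, where 33.2% and 30.6% of all genes were. A gene without reads in sgControl passes the filter on low counts only through the knockouts and can then only be called higher. These counts are tilted toward higher for that reason and are description only. CEACAM8, a granulocyte surface protein stored in specific granules, averaged 3.83 CPM in U937 DKO and 0.611 in SKO, with no reads in sgControl. CEACAM1, an inhibitory receptor, averaged 4.53 CPM in U937 DKO and 1.23 in SKO, against 0.00793 in sgControl, and 16.7 CPM in U937 DKO TPA and 0.647 in SKO TPA, against 0.101 in sgControl TPA. Under TPA 3 of 5 tested were higher in DKO and 3 of 5 in SKO (34.1% and 25.9% of all genes). In THP-1 3 of 4 were higher in DKO and 1 of 4 in SKO (32.0% and 20.7% of all genes), where CEACAM4 averaged 3.44 CPM in DKO and 2.03 in SKO, against 0.188 in sgControl. All 3 tested were higher in MOLM-13 SKO (31.7% of all genes), and the 2 tested in OCI-AML-3 DKO were not called. Near-identical stretches of these paralogs can lose reads that map to several places. The median log2 fold change of 259 to 274 genes within 10 Mb of CEACAM6, relative to all genes, lay between -0.11 and 0.09 in the U937 and THP-1 comparisons with sgControl.

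The specific granule genes were low in every group, and LTF had reads in U937 DKO, U937 SKO and THP-1 DKO but none in the untreated sgControl of either line. LTF, whose product binds iron, had 38, 32 and 32 reads in U937 DKO and 4, 8 and 4 in SKO, and 0 in all 3 sgControl libraries. Its level was at least 37.99-fold higher in DKO and at least 5.77-fold higher in SKO against a floor of 3 reads over the group (edgeR adjusted p = 6.7e-09 and 0.00061). In THP-1 it had 22, 4 and 8 reads in DKO and 0 in the 3 SKO and 3 sgControl libraries. Its level there was at least 14.5-fold higher in DKO than in sgControl, and it was not tested because it failed the filter. These LTF counts were all even. Where both reads of a fragment were counted, the bounds given here are too high. Under TPA LTF had 2.47, 2.56 and 1.71 CPM in U937 DKO and 0.396, 0.480 and 0.698 CPM in SKO. In sgControl it had 0, 0.0469 and 0.478 CPM. DKO was higher by 3.73 ± 0.63 (edgeR adjusted p = 4.7e-05), and SKO overlapped sgControl at 1.64 ± 0.69 (0.06). The spread came from sgControl replicate 3, which held 18 of the 20 reads: without it the values were 6.38 in DKO (edgeR adjusted p = 2.5e-10) and 4.30 in SKO (1.2e-05), and without replicate 1 that in DKO was 3.14 (4.2e-06). LTF had no reads in MOLM-13 SKO and 6 in sgControl, and none in OCI-AML-3.

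CAMP, the precursor of the antimicrobial peptide LL-37, rose in U937 DKO to 2.5, 2.30 and 3.38 CPM, against 0.571, 0.661 and 0.343 CPM in sgControl. The rise was 2.35 ± 0.31 (edgeR adjusted p = 2.1e-08) without overlap, while SKO gave 0.24 ± 0.35. DKO was higher than SKO by 2.11 ± 0.31. In THP-1 SKO it was called lower, -1.23 ± 0.50 (edgeR adjusted p = 0.044), on 32, 8 and 12 reads in SKO, against 32, 44 and 40 reads in sgControl, groups that meet. This call was lost without sgControl replicate 2 (0.1) or 3 (0.097), SKO replicate 2 (0.19) or 3 (0.15) or DKO replicate 2 (0.053) or 3 (0.052) and with DESeq2 (0.072), while the value without SKO replicate 1 was -2.07 (0.0032). THP-1 DKO gave -0.53 ± 0.49 and the TPA-treated knockouts 0.53 ± 0.74 in DKO and -1.10 ± 0.84 in SKO, none of them called. MOLM-13 had 8 reads in SKO and 4 in sgControl, and OCI-AML-3 6 in DKO and 2 in sgControl, a ratio of 2.90 with a counting interval of 0.519 to 29.4.

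The azurophil protease genes were lower in the TPA-treated U937 libraries, and the response was set against untreated cells of the same label to see whether the knockouts changed it. The TPA-treated libraries stand in a separate count table, so treatment and table cannot be told apart. Of 9 members tested, 1 was higher and 6 lower in DKO (36.9% and 36.1% of all genes, 73.0% in either direction), 1 higher and 6 lower in SKO (31.5% and 31.3%, 62.9%), and 2 higher and 6 lower in sgControl (34.5% and 33.1%, 67.6%). CTSG had 103 ± 7.54 CPM in DKO TPA and 1296 ± 21.2 in untreated DKO, 114 ± 2.44 in SKO TPA and 1439 ± 51.8 in untreated SKO, and 33.6 ± 1.34 in sgControl TPA and 2568 ± 130 in untreated sgControl (SD, n = 3 each). The log2 responses were -3.61 ± 0.04 in DKO, -3.62 ± 0.04 in SKO and -6.25 ± 0.05 in sgControl. PRTN3 responded by -3.49 ± 0.13 in DKO, -2.74 ± 0.12 in SKO and -4.91 ± 0.14 in sgControl, and ELANE by -3.34 ± 0.12, -2.82 ± 0.12 and -4.09 ± 0.13 in the same order of groups. AZU1 changed less, by -2.53 ± 0.07 in DKO, -1.57 ± 0.06 in SKO and -2.55 ± 0.07 in sgControl. All of these falls had an edgeR adjusted p of 1.3e-10 or smaller and no overlap between treated and untreated libraries. Over the same libraries the 15 monocyte and macrophage markers summed to 2181 to 2294 CPM in DKO TPA and 132.3 to 137.0 in untreated DKO, 1297 to 1336 in SKO TPA and 93.17 to 103.9 in untreated SKO, and 981.1 to 992.3 in sgControl TPA and 40.62 to 45.46 in untreated sgControl. Of 13 markers tested, 8 were higher and 1 lower in DKO, 11 and 2 in SKO and 8 and 1 in sgControl, beside the shares above. Of the 10 mitochondrial and heat shock transcripts, 8 were called lower and 2 higher under TPA in DKO. In SKO 9 were lower and in sgControl 8. The part of either list in the response was not tested.

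The differences of these responses were tested in 1 model of the 18 U937 libraries. The knockout effect under TPA minus that without was higher for 3 members and lower for 3 of 9 in DKO (21.7% and 27.8% of all genes, 49.5% in either direction) and higher for 4 and lower for 0 of 9 in SKO (19.6% and 18.1%, 37.7% in either). At an unadjusted p under 0.05 by edgeR's quasi-likelihood test, LTF was also lower in SKO, fitted against an untreated sgControl group without reads, and CEACAM6 also higher, while DESeq2 called 4 members in SKO in all. CTSG had the largest difference past the test in the direction higher, 2.64 ± 0.06 in DKO (edgeR adjusted p = 2.7e-32) and 2.62 ± 0.06 in SKO (1.8e-31), and lay lower in the knockouts without TPA and higher with it in all libraries. PRTN3 differed by 1.43 ± 0.19 in DKO and 2.17 ± 0.19 in SKO, and ELANE by 0.75 ± 0.17 in DKO and 1.27 ± 0.17 in SKO. AZU1 differed by 0.98 ± 0.09 in SKO and was not called in DKO at 0.02 ± 0.09. MPO was not called in either, at 1.03 ± 1.04 in DKO and 0.53 ± 0.98 in SKO.

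**Figure D5:**
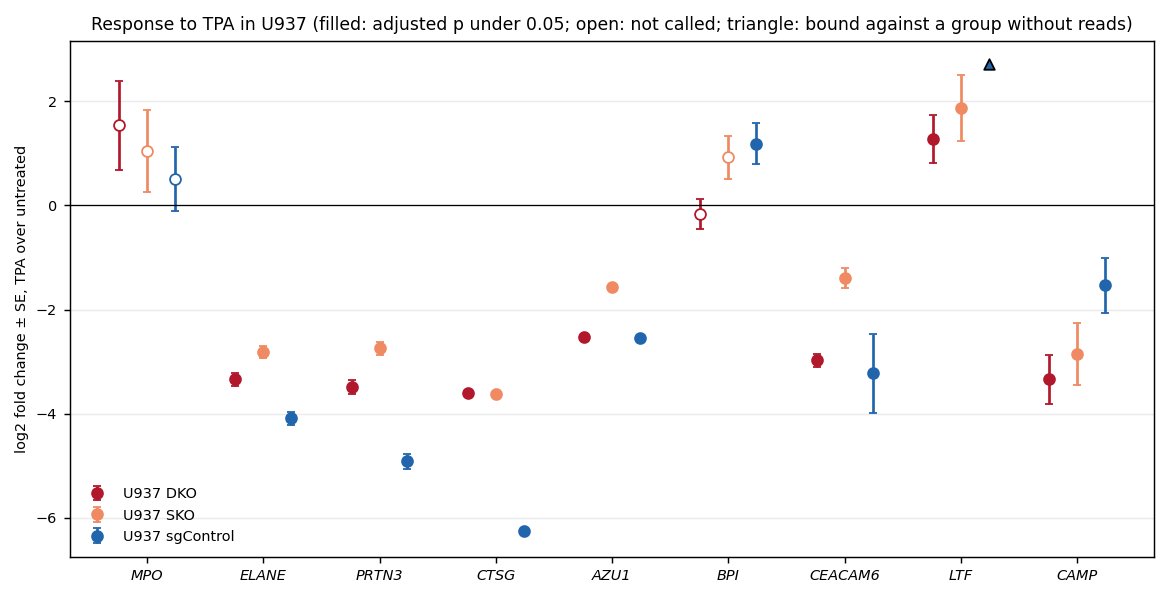
Log2 fold change ± SE of TPA-treated over untreated U937 for 9 members, with DKO, SKO and sgControl side by side, filled where called and a triangle for the bound against a group without reads. CTSG stands at -3.61 in DKO and -3.62 in SKO, against -6.25 in sgControl, and PRTN3 and ELANE also fell less in both knockouts than in sgControl.

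The remaining members responded to TPA at low counts. CEACAM6 fell by 2.97 ± 0.12 in DKO, with 708 reads under TPA and 6084 without, and by 1.39 ± 0.19 in SKO, with 142 reads under TPA and 349 without. In sgControl it had 3 reads under TPA and 31 without, a ratio of 0.0949 (counting interval 0.0186 to 0.304), and the 142 and 708 reads of the treated knockouts stayed above those 3. CAMP changed by -3.34 ± 0.47 in DKO, -2.85 ± 0.59 in SKO and -1.53 ± 0.53 in sgControl, all called lower. The sgControl call was lost without TPA replicate 2 (edgeR adjusted p = 0.062) or 3 (0.071), and its value without TPA replicate 1 was -2.76, while that in SKO without TPA replicate 3 was -3.51. LTF rose by 1.27 ± 0.47 in DKO and 1.87 ± 0.63 in SKO, and in sgControl had 0, 2 and 18 reads under TPA and none without, at least 6.54-fold higher over the floor. The LTF calls were lost in DKO without untreated DKO replicate 2 (edgeR adjusted p = 0.054) or DKO TPA replicate 1 (0.051) or 2 (0.055), in SKO without SKO TPA replicate 3 (0.052) and in sgControl without sgControl TPA replicate 3 (0.11). BPI rose by 1.18 ± 0.40 in sgControl, and was not called in DKO (-0.17 ± 0.30) or SKO (0.92 ± 0.42).

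For BPI, LTF and CAMP the DKO effect was lower under TPA than without. BPI differed by -1.35 ± 0.49 (edgeR adjusted p = 0.021), which was lost without untreated DKO replicate 1 (0.1) or sgControl TPA replicate 2 (0.067) or 3 (0.065). CAMP differed by -1.81 ± 0.74 (edgeR adjusted p = 0.039), which was lost without sgControl TPA replicate 1 (0.68), untreated sgControl replicate 3 (0.086), untreated DKO replicate 3 (0.092) or DKO TPA replicate 1 (0.092). The LTF difference, called at an edgeR adjusted p of 0.029, rests on an untreated sgControl group without reads, so its fitted size is no measure, and it was lost without any 1 untreated sgControl library (0.062 to 0.07) and without sgControl TPA replicate 3 (0.31).

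The knockout effects of U937 and THP-1 were compared in 1 model of their 18 untreated libraries. The DKO effect in U937 minus that in THP-1 was higher for 5 and lower for 2 of 9 members (29.7% and 24.6% of all genes, 54.4% in either direction), and the SKO difference higher for 2 and lower for 3 of 9 (24.1% and 22.6%, 46.8%). CEACAM6 differed by 5.46 ± 0.21 in DKO (edgeR adjusted p = 2.1e-24) and 2.08 ± 0.28 in SKO (2.3e-08). CTSG differed by -1.17 ± 0.06 in DKO (edgeR adjusted p = 2.3e-20) and -1.33 ± 0.06 in SKO (3.8e-22). PRTN3 differed by 0.56 ± 0.13 in DKO and -1.02 ± 0.13 in SKO, ELANE by 0.90 ± 0.16 in DKO and AZU1 by 1.18 ± 0.06 in DKO, where the neighbourhood of PRTN3 differed by 0.74 in DKO and 0.36 in SKO. MPO differed by -3.06 ± 0.64 in DKO and -3.10 ± 0.59 in SKO, on 7 and 10 reads in the U937 knockouts, and without U937 DKO replicate 2 or U937 SKO replicate 1 the values were -3.74 in both. CAMP differed by 2.93 ± 0.57 in DKO (edgeR adjusted p = 2.7e-05) and 1.49 ± 0.60 in SKO (0.037), and the SKO call was lost with 9 of the 18 libraries left out in turn (0.058 to 0.14) and with DESeq2 (0.053). BPI was not called in DKO, at 1.12 ± 0.60 (edgeR adjusted p = 0.11), or in SKO, at -0.49 ± 0.67. LTF had no reads in sgControl of either line and was not called in these differences, whose fitted sizes are no measure.

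The counts of other lists are read beside the shares of all genes, which in the 8 comparisons with sgControl ran from 20.7% in THP-1 SKO to 34.1% in U937 DKO TPA for higher and from 22.9% to 36.5% in the same comparisons for lower. Of 16 other azurophil genes, 9 of 15 tested were higher and 5 lower in U937 DKO, 11 and 3 of 15 in U937 SKO, 10 and 4 of 16 in THP-1 DKO, 11 and 2 of 16 in THP-1 SKO, 14 and 1 of 15 in MOLM-13 SKO and 13 were higher of 15 in OCI-AML-3 DKO. Under TPA they were 9 and 5 of 15 in DKO and 9 and 3 of 15 in SKO. LYZ, which encodes lysozyme, averaged 7606 CPM in MOLM-13 SKO, against 581 in sgControl (3.72 ± 0.02, edgeR adjusted p = 1.8e-53), and 1092 CPM in OCI-AML-3 DKO, against 234 in sgControl. Under TPA it ran the other way, 162 CPM in U937 DKO and 194 in SKO, against 634 in sgControl. PRSS57, a further serine protease of the azurophil granule, averaged 4.596 CPM in U937 DKO and 2.84 in SKO, against 0.499 in sgControl (3.18 ± 0.23 in DKO and 2.49 ± 0.24 in SKO). MS4A3, a membrane protein of granulocyte-monocyte progenitors, averaged 66.1 CPM in U937 DKO and 67.7 in SKO, against 171 in sgControl (-1.38 ± 0.04 in DKO, edgeR adjusted p = 1.5e-25).

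Of 20 other specific and gelatinase granule genes, beside those shares of 20.7% to 34.1% higher and 22.9% to 36.5% lower, 10 of 14 tested were higher and 2 lower in U937 DKO, 10 and 3 of 14 in U937 SKO, 8 and 4 of 14 in THP-1 DKO, 5 and 3 of 14 in THP-1 SKO, while 10 of 13 were higher in MOLM-13 SKO and 6 of 11 in OCI-AML-3 DKO. Under TPA they were 12 and 2 of 14 in DKO and 7 and 5 of 14 in SKO. MMP9, the gelatinase, averaged 53.2 CPM in U937 DKO TPA and 7.53 in SKO TPA, against 731 in sgControl TPA (-3.77 ± 0.17 in DKO, edgeR adjusted p = 9.6e-07, and -6.60 ± 0.21 in SKO, 2.8e-07). Of 15 genes that process, store or inhibit the proteases, 8 were higher and 7 lower in U937 DKO, 8 and 6 in U937 SKO, 5 and 7 in THP-1 DKO, 4 and 7 in THP-1 SKO, 12 and 2 in U937 DKO TPA, 7 and 6 in U937 SKO TPA, 11 and 3 in MOLM-13 SKO and 10 and 2 in OCI-AML-3 DKO. SLPI, an inhibitor of elastase and cathepsin G, averaged 27.0 CPM in U937 DKO and 10.4 in SKO, against 2.64 in sgControl, and 5.51 CPM in U937 DKO TPA and 1.94 in SKO TPA, against 0.118 in sgControl TPA. SERPINA1, the plasma inhibitor of elastase, averaged 60.8 CPM in U937 DKO and 41.3 in SKO, against 7.18 in sgControl (3.08 ± 0.07 in DKO and 2.52 ± 0.07 in SKO). SRGN, the proteoglycan core that holds proteases in granules, averaged 3598 CPM in U937 SKO, against 1089 in sgControl (1.72 ± 0.03), and 5082 CPM in OCI-AML-3 DKO, against 2535 in sgControl (1.01 ± 0.04). SRGN fell in THP-1 SKO, to 1886 CPM, against 4620 in sgControl (-1.28 ± 0.04, all past the edgeR test).

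Transcription factors of granulocytes were called in both directions, in several comparisons near those shares of all genes, with 12 of 17 tested higher and 5 lower in U937 DKO, 11 and 3 of 17 in U937 SKO, 8 and 6 of 18 in THP-1 DKO, 6 and 6 of 18 in THP-1 SKO, 9 and 6 of 16 in U937 DKO TPA, 8 and 3 of 16 in U937 SKO TPA, 11 and 4 of 17 in MOLM-13 SKO and 7 and 4 of 16 in OCI-AML-3 DKO. CEBPE, the factor of specific granule genes, averaged 7.60 CPM in THP-1 DKO, against 3.76 in sgControl (1.12 ± 0.14, edgeR adjusted p = 1.6e-08). Its levels in MOLM-13, picked after they were seen, were 11.6 CPM in SKO and 34.7 in sgControl. Of 17 neutrophil receptor genes, 11 of 14 tested were higher and 2 lower in U937 DKO, 9 and 2 of 14 in U937 SKO, 11 and 0 of 13 in THP-1 DKO, 7 and 1 of 13 in THP-1 SKO, 11 and 2 of 14 in U937 DKO TPA, 8 and 4 of 14 in U937 SKO TPA, 9 and 2 of 12 in MOLM-13 SKO and 8 and 1 of 11 in OCI-AML-3 DKO, where 20.7% to 34.1% of all genes were higher and 22.9% to 36.5% lower. ITGAM, the integrin alpha M chain of myeloid cells, averaged 138 CPM in U937 DKO and 70.6 in SKO, against 4.22 in sgControl (5.03 ± 0.06 in DKO and 4.07 ± 0.06 in SKO), and 178 CPM in MOLM-13 SKO, against 26.0 in sgControl (2.78 ± 0.05). Monocyte and macrophage markers summed to 875.4 to 885.2 CPM in OCI-AML-3 DKO and 134.3 to 137.0 in sgControl, to 482.8 to 491.9 CPM in THP-1 DKO and 357.8 to 380.4 in SKO, against 225.5 to 250.4 in sgControl, and to 132.3 to 137.0 CPM in U937 DKO and 93.17 to 103.9 in SKO, against 40.62 to 45.46 in sgControl. Of 9 of these markers tested, 8 were higher and 1 lower in U937 DKO, and 5 and 1 in U937 SKO. Of 13 tested, 8 were higher and 2 lower in THP-1 DKO, 7 and 1 in THP-1 SKO and 12 and 0 in OCI-AML-3 DKO, beside the same shares of all genes. The part of these markers in the changes of the granule genes was not tested.

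Across the 13 group means, on log2(CPM + 0.5) and over 16183 genes, the genes most like ELANE were PRTN3 (Pearson r = 0.984), CBFA2T3 (0.970) and NPHP4 (0.958), and after ELANE those most like PRTN3 were SYMPK (0.977) and RPS15 (0.974). ELANE and AZU1 had r = 0.948, and PRTN3 and AZU1 r = 0.965. CTSG stood apart from them, with r = 0.532 to ELANE, 0.444 to PRTN3, 0.478 to AZU1 and -0.302 to BPI, and the genes most like it were PRUNE1 (r = 0.920), TAF11 (0.889) and PAAF1 (0.877). AZU1 was most like CLEC11A (0.988), which encodes a haematopoietic growth factor and also lies on chromosome 19, P2RY2 (0.980) and PPP1R7 (0.973). BPI was most like PRSS57 (0.986), STON1 (0.984) and GRASLND (0.982), and MPO most like RP11-214O1.2 (0.991), VAT1L (0.976) and RP11-30K9.5 (0.975). CEACAM6 was most like DEFB1 (0.954), an epithelial beta-defensin, ELFN2 (0.924) and CHDH (0.923). LTF was most like RP11-554A11.11 (0.971), TCTE1 (0.944) and CEACAM1 (0.938), and CAMP most like TAFA3 (0.865), FBXO10 (0.864) and RASIP1 (0.849). CEACAM6 and CAMP had r = 0.729. These are descriptions over 13 points that share lines and sgControl libraries, and a few groups with high or zero levels set them.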

How the data were processed

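Poly(A)-selected RNA of 35 libraries was sequenced, and the authors deposited raw read counts per gene name in 2 tables. Per the file headers, the table of untreated U937 and THP-1 was counted on GENCODE 38 gene models, each read of a pair singly, without strand and leaving out reads with several positions or genes. The other table holds no counting command, so its settings are not given in the sources used here. Of low counts, 65.8% to 70.1% were even in its libraries, and 64% to 72.2% in those of untreated U937 and THP-1. A fragment may therefore add 2 counts there too. fastp 0.23.4, STAR 2.7.11b, featureCounts, Subread 2.0.6 and the build hg38 appear in the submitters' processing notes. Both tables hold the same 59428 rows, and totals ran from 31985767 to 61178704 counts.

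Counts were fitted with edgeR 4.0.16 in R 4.3.3 (TMM scaling, filterByExpr, robust quasi-likelihood, Benjamini-Hochberg adjustment at 0.05 over all genes tested), in 1 fit per line and treatment, and in fits of 18 libraries for TPA and for U937 with THP-1. Levels are CPM with 1 TMM scaling over all libraries. Fits tested 14915 to 18715 genes, of which 6 to 9 of the 10 members. DESeq2 1.42.0, its size factors, no filter, only the compared groups, a replicate block and leaving out each library were alternatives, and a term for a header code shared by 1 library of each untreated U937 group was added after seeing the headers. The main fits did not pair libraries by replicate number. Deviations of libraries with 1 number correlated at -0.04 to 0.086, so no strong shared effect was seen. These correlations cannot show whether such libraries were prepared together. As a check of the code alone, the untreated U937 and MOLM-13 fits were also run on simulated counts. Intervals and floors of 3 reads concern counting error only, and treat every count as a separate observation. Where both reads of a fragment were counted, the intervals are too narrow and the bounds on fold changes too high. Named genes were all members, the targets, from each other list up to 3 genes whose change past the test was largest in a comparison with sgControl (the text gives some of these), and the 3 genes most like each member, and 1 gene the rule names is not reported here. Members and lists were chosen with earlier results of these data known. Comparisons with the same sgControl libraries are not independent of each other. RefSeq promoters of MPO, ELANE and BPI and all protein sequences were not used here.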

Additional observations from a re-analysis of the deposited data

Results flagged for a closer look

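In the model of the 18 U937 libraries, the effect of SKO under TPA minus that without was 1.27 for ELANE, 2.17 for PRTN3, 2.62 for CTSG and 0.98 for AZU1 on the log2 scale, each past the test of the difference itself. The DKO difference passed for ELANE at 0.75, PRTN3 at 1.43, CTSG at 2.64, BPI at -1.35, LTF at -4.42 and CAMP at -1.81. The LTF value is fitted against a group without reads and is no measure of size, and those of BPI and CAMP rest on few reads and on single libraries. The TPA-treated libraries stand in another table, so treatment and table cannot be told apart.

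Between U937 and THP-1 the SKO effects differed past the test for MPO at -3.10, PRTN3 at -1.02, CTSG at -1.33, CEACAM6 at 2.08 and CAMP at 1.49. The DKO effects differed for MPO at -3.06, ELANE at 0.90, PRTN3 at 0.56, CTSG at -1.17, AZU1 at 1.18, CEACAM6 at 5.46 and CAMP at 2.93. The MPO values rest on 7 reads in U937 DKO and 10 in U937 SKO. The CAMP call in SKO was lost with 9 of the 18 libraries left out in turn and with DESeq2 (DESeq2 adjusted p = 0.053).

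Further pairs of lines moved in opposite directions, every library of a knockout beyond every sgControl library, and these differences were not tested. For SKO, PRTN3 was at -0.99 in U937 and 0.30 in MOLM-13, a difference of -1.28, MPO at 1.25 in THP-1 and -1.55 in MOLM-13 (2.80), and CTSG at 0.50 in THP-1 (1.99 above MOLM-13) and 1.77 in U937 TPA (3.26 above MOLM-13), against -1.49 in MOLM-13. For DKO, CTSG was at -0.99 in U937 and 1.22 in OCI-AML-3 (-2.21), MPO at 0.80 in THP-1 and -0.62 in OCI-AML-3 (1.42), AZU1 at -0.26 in THP-1 and 1.00 in OCI-AML-3 (-1.26), ELANE at 0.95 in U937 TPA and -0.19 in OCI-AML-3 (1.14), and PRTN3 at 0.70 in U937 TPA and -0.56 in OCI-AML-3 (1.25). Of the OCI-AML-3 calls, that of MPO was lost when any 1 of the 4 libraries was left out. That of ELANE was lost without sgControl replicate 1.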

How the results depend on the processing

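Of the log2 fold changes of members, 148 of 150 kept their direction and side of the threshold with DESeq2's size factors, 140 of 150 with the DESeq2 test, 143 of 150 without the filter on low counts, 145 of 150 with the replicate block, and all 24 with the header code as a term. Leaving out single libraries gave 1854 further values, of which 61 lost a call, 12 gained one and 26 changed sign. The sign changes were all of values not called. Over libraries left out, ELANE in U937 SKO ran from -0.012 to 0.20, CAMP from -0.054 to 0.44 and BPI from -0.27 to 0.054 there, BPI in THP-1 SKO from -0.013 to 0.94, MPO in U937 DKO TPA against SKO TPA from -0.17 to 0.41, and BPI in U937 DKO TPA against DKO from -0.37 to 0.16. The DKO effect under TPA minus that without ran from -0.049 to 0.11 for AZU1 and from -0.30 to 3.34 for CEACAM6. The SKO effect in U937 minus that in THP-1 ran from -0.081 to 0.076 for ELANE, at -0.009 without the filter, and from -0.13 to 0.012 for AZU1. In OCI-AML-3 DKO 6 members were called and 3 or 4 with a library left out, where a lone library is assumed to vary like the others, and fewer libraries entered each fit. In the other comparisons the number of members called stayed within 1.5 times under these alternatives. The replicate block ended the calls of MPO in U937 DKO TPA (adjusted p = 0.066, edgeR), U937 SKO TPA (0.068) and OCI-AML-3 DKO (0.057) and of CAMP in the DKO difference under TPA (0.056), and gave one for PRTN3 in U937 DKO against SKO (0.024). Levels moved by more than 1 SD in 38 of 130 group means without scaling factors. The shift between scalings was at most 0.061 in the median log2 fold change. Depth limits LTF, CAMP, LCN2 and, in U937, MPO.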
